A study of Mus musculus with 18 samples.

Results

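The interferon regulatory factors (IRFs) are transcription factors that share an N-terminal DNA-binding domain and bind interferon-stimulated response elements (ISREs). The 8 genes described here, Irf1, Irf2, Irf3, Irf4, Irf5, Irf7, Irf8 and Irf9, were taken by name from the 50600 gene IDs of the count table, and this family was picked with earlier results of these data known. All 8 were among the 15663 genes that passed the filter on low counts.

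The study asked how defactinib, an inhibitor of the kinases FAK and PYK2, alters the LPS response of macrophages with and without IRF5. Bone marrow cells of mice labelled wild-type (WT) or IRF5 KO were cultured with GM-CSF for 8 days, which gives bone marrow-derived macrophages (BMDMs). RNA-seq was done in 6 groups of 3 libraries, which the labels describe as biological replicates. In each genotype there were unstimulated cells at 0 h, cells given DMSO for 1 h and then 100 ng/ml LPS for 2 h (LPS DMSO), and cells given 3.5 μM defactinib for 1 h and then the same LPS for 2 h (LPS defactinib). The design text and sample titles call the unstimulated cells DMSO treated, whereas the columns of the deposited counts mark them UT. Whether they received DMSO therefore cannot be told, and no group received defactinib without LPS. The study's general animal methods name male C57BL/6J mice that were 8 to 11 weeks old, without tying them to these libraries, and the knockout allele and any sequencing batch are not given in the sources used here. The p-values therefore measure the spread between these libraries only.

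LPS is sensed by TLR4 with its co-receptor CD14. The adaptor TRIF leads, through the kinases TBK1 and IKKε, to phosphorylation of IRF3 and to transcription of interferon-beta, while MyD88 signalling activates IRF5 and NF-kB. Secreted interferon-beta acts back on the cells through IFNAR, JAK1 and TYK2, and the ISGF3 complex, of which IRF9 and STAT2 are subunits, then binds ISREs of interferon-stimulated genes, Irf7 among them. IRF1 activates and IRF2 often antagonises transcription at related sites, and IRF4 and IRF8 bind DNA with the ETS factors PU.1 and SPIB in myeloid cells.

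The libraries held between 39282181 and 61949143 counted read pairs, with a median of 45317217. The macrophage markers were counted in every library: the summed level of Adgre1, Csf1r, Cd68, Lyz2, Itgam, Mertk and Fcgr1 was 9368 to 18772 CPM, that is, counts scaled to the TMM-adjusted size of the library. Most of that sum was Lyz2, at 7705 to 15899 CPM, and the lowest levels of Mertk, Fcgr1 and Adgre1 were 25.7, 37.6 and 70.3 CPM. Of 6 conventional dendritic cell markers, 5 were tested. The summed level of all 6 moved with the groups. In WT it went from 110.0 to 119 CPM in unstimulated libraries to 371 to 481 with LPS and 46.1 to 86.0 with LPS and defactinib. In IRF5 KO it was 99.7 to 129 CPM in unstimulated libraries, 159 to 241 with LPS and 235 to 248 with LPS and defactinib. Most of this sum was Ccr7, at 8.78 to 368 CPM, and Zbtb46, at 20 to 97.2 CPM. Clec9a held 4.24 to 10.9 CPM, Cd209a 0.565 to 8.83 CPM and Flt3 0.315 to 2.72 CPM, whereas Xcr1 reached no more than 16 counts. The plasmacytoid list moved through Tcf4, at 24.9 to 140.3 CPM, while Siglech had at most 7 counts in a library. Of 7 neutrophil markers 6 were tested, of which 5 rose with LPS in WT and 3 in IRF5 KO cells, against 11.6% and 7.07% of all tested genes called higher. The summed level of all 7 was 51.9 to 74.3 CPM in the unstimulated libraries and 109.7 to 214 CPM in the LPS-treated ones of both genotypes. Most of it came from S100a8 (23.6 to 88.2 CPM) and S100a9 (18.5 to 81.1 CPM). Ngp held 8.39 to 40.7 CPM and Camp 1.10 to 4.11 CPM, whereas Ly6g, Mpo and Elane reached no more than 46, 16 and 17 counts. The part of these marker changes in the results was not tested, and in bulk RNA fewer cells of a type and less RNA per cell cannot be told apart. Ncr1, a gene of natural killer cells, had at most 2 counts in a library.

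In 2 groups the third library stood apart. IRF5 KO LPS DMSO replicate 3 had a correlation of log2 CPM of 0.932 with each of its mates, against 0.978 to 0.979 with the unstimulated IRF5 KO libraries. Its mates had 0.992 with each other and 0.985 to 0.987 with the IRF5 KO LPS defactinib libraries. With the WT LPS DMSO libraries the mates had 0.895 to 0.900 and replicate 3 had 0.954 to 0.957. Which of these libraries reflect LPS with DMSO better was not tested. WT LPS defactinib replicate 3 had correlations of 0.971 to 0.977 with its mates, which reached 0.985 with each other. Both libraries remained in the tests, and a number of results are also given with these 2 libraries left out together. They were singled out after the data were seen, partly for the members' own counts, so the smaller errors without them follow in part from that choice.

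Table positions are on mm10. Irf1 spans chr11:53770014-53778374, Irf2 chr8:46739732-46847458, Irf3 chr7:44997648-45002848, Irf4 chr13:30749226-30766927, Irf5 chr6:29526625-29541871, Irf8 chr8:120736358-120756694 and Irf9 chr14:55603571-55610030, all on the plus strand, and Irf7 spans chr7:141262706-141266481 on the minus strand. Counting was strand-specific, over exons, from uniquely mapped pairs. Irf8 overlaps Gm20388 and Irf9 overlaps Rnf31 on the same strand, and pairs from such shared stretches may be missing from either count. The other members have no same-strand neighbour within their bounds.

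Of the members called after LPS in WT cells, the promoters of Irf1 and Irf8 held motifs of factors that act in this response. The 250 bases before the start of each are shown, from RefSeq on GRCm38.p6, plus strand, with the matches in capitals. In Irf1, chr11:53769764-53770013, the capitals mark a GAS motif, bound by STAT dimers, at -90 to -82 from the start and an NF-kB motif at -13 to -4. In Irf8, chr8:120736108-120736357, they mark a pair of GAS motifs at -171 to -163 and -153 to -145.
Irf1: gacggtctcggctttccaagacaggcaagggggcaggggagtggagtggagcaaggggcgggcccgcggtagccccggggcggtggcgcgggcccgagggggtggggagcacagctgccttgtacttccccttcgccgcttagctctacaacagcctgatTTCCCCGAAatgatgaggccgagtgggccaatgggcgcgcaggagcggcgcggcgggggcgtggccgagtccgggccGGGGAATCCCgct
Irf8: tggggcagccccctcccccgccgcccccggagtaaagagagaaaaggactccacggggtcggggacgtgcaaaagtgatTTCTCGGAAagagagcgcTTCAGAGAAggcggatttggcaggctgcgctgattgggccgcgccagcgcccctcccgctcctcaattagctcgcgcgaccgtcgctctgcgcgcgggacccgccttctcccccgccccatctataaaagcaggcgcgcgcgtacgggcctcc

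The search covered both strands with the ISRE core GAAANNGAAA, the GAS motif TTCNNNGAA and the NF-kB motif. Of 32851 mouse promoter windows of the same length, 2.98% held the ISRE core, 7.02% the GAS motif and 3.9% the NF-kB motif. The windows of Irf7 and Irf9, which rose with LPS in the same cells, held none of them, nor did those of Irf3, Irf4 and Irf5. RefSeq gives Irf1 and Irf8 a second start each, with windows at chr11:53770223-53770472 and chr8:120738389-120738638, and neither these nor the second window of Irf9 held a match. The window of Irf2, which was not called after LPS, held all of them, with the ISRE core at -241 to -232. A match is a description of these letters, and no match says only that they are not in this window.

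Between groups, a gene was called at a false discovery rate below 0.05 in edgeR's quasi-likelihood test with a fold change above 2. With LPS in WT cells, 4 of 8 members rose (Irf1, Irf7, Irf8 and Irf9) and none was called lower, against 21.3% of all tested genes called and 11.6% called higher. With LPS in IRF5 KO cells only Irf1 was called, against 13.3% of tested genes. With defactinib in LPS-treated WT cells, 5 members fell (Irf1, Irf2, Irf4, Irf8 and Irf9) and none was called higher, against 29.1% of genes called and 18.6% called lower. With defactinib in LPS-treated IRF5 KO cells, edgeR called 0 members, with 1 at an unadjusted p below 0.05, and DESeq2 and limma-voom also called 0. The share of all genes called there was 0.919%.

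Against unstimulated cells, LPS with defactinib left 3 members called in WT (Irf4 and Irf5 lower, Irf7 higher), against 24.9% of genes, and 3 in IRF5 KO (Irf1 higher, Irf2 and Irf9 lower), against 24% of genes. In unstimulated cells edgeR called 0 members between WT and IRF5 KO, with 2 at an unadjusted p below 0.05, against 7.31% of genes, and DESeq2 and limma-voom called 0. After LPS, 6 members were higher in WT than in IRF5 KO (Irf1, Irf2, Irf4, Irf7, Irf8 and Irf9), against 25.8% of genes called and 14% called in that direction. Those 6 log2 differences, in this order, were 3.50, 1.36, 2.28, 4.60, 2.88 and 3.94 without the 2 libraries that stood apart, all called, against 35% of genes. With IRF5 KO LPS DMSO replicates 1 and 2 left out instead, they were 1.42, 0.57, 0.14, 2.22, 0.62 and 1.10. Those of Irf2, Irf4 and Irf8 were then below the called fold, and 1 library stood for IRF5 KO LPS DMSO. After LPS with defactinib, 3 were called (Irf1 and Irf4 lower and Irf7 higher in WT), against 17.3% of genes. The test of the difference between the LPS responses of the genotypes called Irf1 and Irf8, 2 members, against 9.83% of genes. The same test for defactinib called Irf1 and Irf4, also 2 members, against 22.8% of genes. Without the 2 libraries each test called Irf1, Irf2, Irf4, Irf7, Irf8 and Irf9, with log2 differences of 4.09, 1.29, 1.62, 3.95, 4.40 and 3.71 for LPS (24.7% of genes) and of -5.71, -1.34, -5.19, -4.09, -4.37 and -3.68 for defactinib (34.2% of genes). All comparisons that use the WT LPS DMSO or IRF5 KO LPS DMSO libraries share them.

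**Figure D1:**
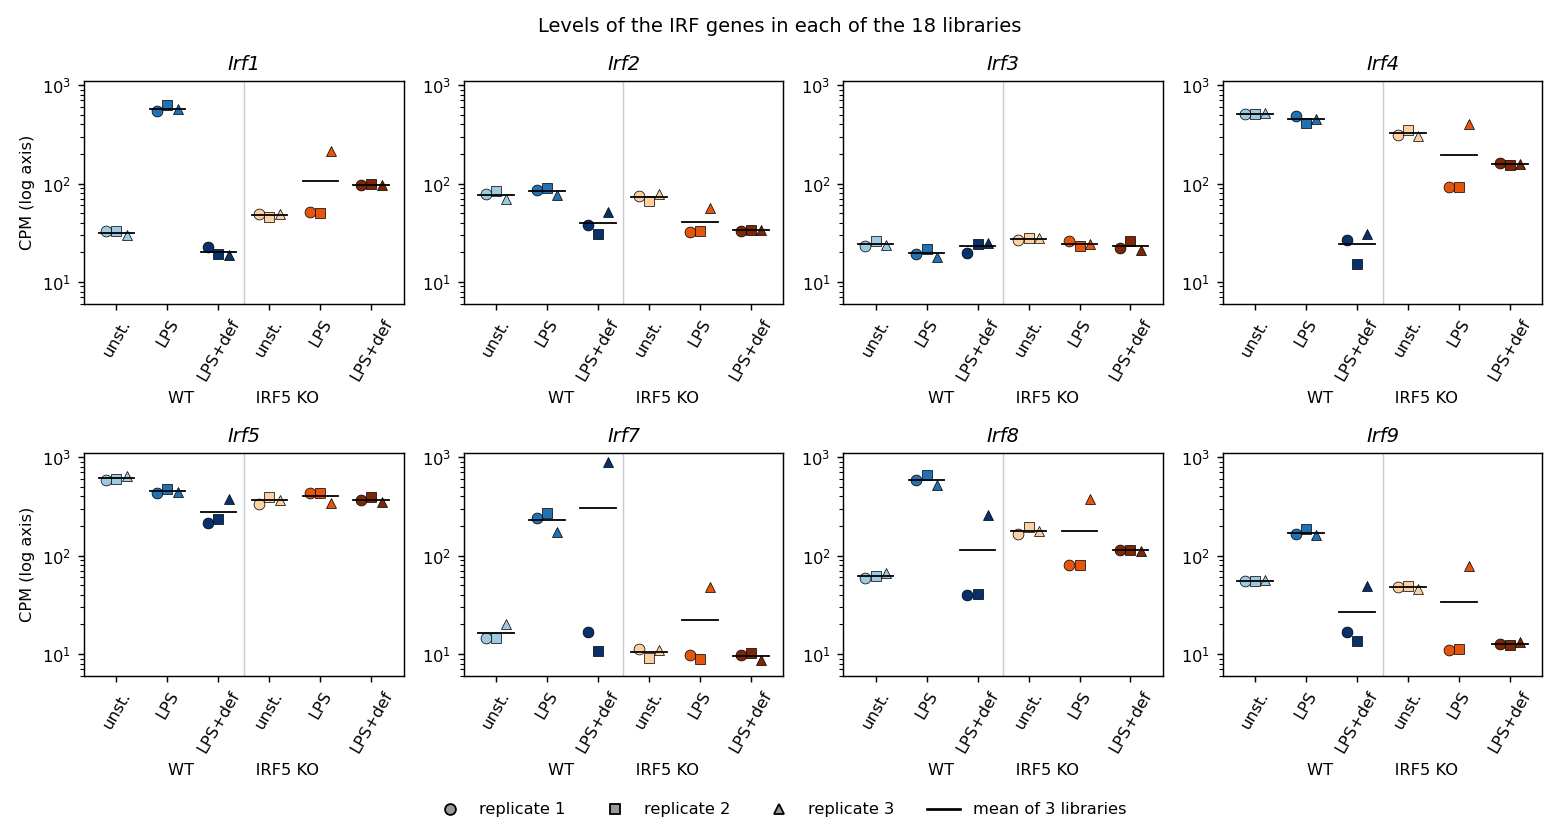
Level of each IRF gene in CPM (log axis) in the 6 groups (unst., unstimulated; LPS, LPS DMSO; LPS+def, LPS defactinib), with 1 symbol for each of the 3 libraries and a line at the group mean. With LPS in WT cells Irf1 sits between 543 and 622 CPM with DMSO and between 19 and 22.8 CPM with defactinib, and replicate 3 of WT LPS defactinib and of IRF5 KO LPS DMSO lies far from its mates for Irf7, Irf8 and Irf9.

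Irf5, the gene named in the knockout label, encodes a factor that drives inflammatory cytokine genes in macrophages. Unstimulated WT libraries held 587, 606 and 650.3 CPM and unstimulated IRF5 KO libraries 335, 397 and 364 CPM of it. After LPS the WT libraries held 434, 475 and 443 CPM and the IRF5 KO libraries 435, 431 and 345 CPM. With LPS and defactinib the WT libraries held 213, 234 and 379 CPM and the IRF5 KO libraries 364, 392 and 353 CPM. Reads were thus assigned to Irf5 in every library labelled IRF5 KO, and the genotypes were apart in unstimulated cells and overlapped in both LPS conditions, with defactinib through WT replicate 3 alone, since its mates lay below every IRF5 KO one. The fitted difference in unstimulated cells was 0.75 ± 0.16 (log2, SE; edgeR adjusted p = 0.00492), a 1.68-fold excess in WT. After LPS it was 0.16 ± 0.16 (adjusted p = 0.428), and with LPS and defactinib -0.42 ± 0.16 (adjusted p = 0.0545), or -0.70 ± 0.12 (adjusted p = 0.000263) without WT replicate 3. A gene total cannot show whether the transcripts of the knockout are intact, since a deletion of some exons leaves the others to be counted, so it does not check the label and genotypes are named here as labelled.

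Within WT cells Irf5 was lower after LPS by a small margin (log2 difference -0.45 ± 0.16, edgeR adjusted p = 0.0382) and lower again with defactinib, at -0.71 ± 0.16 (adjusted p = 0.00182). Each of these differences is below the called fold. From unstimulated cells to LPS with defactinib the fall reached the threshold, at -1.16 ± 0.17 (adjusted p = 5.92e-05), a 2.23-fold decrease with no overlap between the groups, though without WT LPS defactinib replicate 1 it was -0.97 and under the called fold. The third WT LPS defactinib library was the highest of its group, and without the 2 libraries that stood apart the defactinib difference became -1.01 ± 0.08 (adjusted p = 2.22e-09) and would be called. In IRF5 KO cells none of the Irf5 comparisons passed, and the interval of the LPS difference ran from -0.18 to 0.46. The genotype difference in the response to LPS was -0.59 ± 0.23 (adjusted p = 0.0897) and in the response to defactinib -0.58 ± 0.23 (adjusted p = 0.0597).

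Irf1, an activator that is required for many interferon-gamma responses, made the largest log2 change of the family with LPS in WT cells. It stood at 32.8, 32.8 and 29.8 CPM in unstimulated WT libraries, at 543, 622 and 569.9 CPM after LPS and at 22.8, 19.1 and 19 CPM after LPS with defactinib. The 3 groups did not overlap, and every library with the inhibitor lay below every unstimulated one. LPS raised Irf1 18.2-fold (log2 4.18 ± 0.43, edgeR adjusted p = 2.23e-06) and defactinib lowered it 28.5-fold (log2 -4.83 ± 0.45, adjusted p = 6.89e-07). The remaining difference between defactinib-treated and unstimulated WT cells, -0.65 ± 0.38, did not pass (adjusted p = 0.168).

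Irf1 in the IRF5 KO libraries stood at 48.9, 45.6 and 49.2 CPM before LPS. After LPS it was 51.4, 50.5 and 213 CPM, and with LPS and defactinib 96.1, 98.1 and 95.6 CPM. The rise with LPS, log2 1.13 ± 0.38 (edgeR adjusted p = 0.0324), was 0.09 ± 0.09 (adjusted p = 0.414) without the third library. It was 1.02 ± 0.39 (adjusted p = 0.0531) and not called with the replicate number as a block. The call was also lost without any 1 of the unstimulated IRF5 KO libraries (adjusted p = 0.0764 to 0.0859). The rise from unstimulated cells to LPS with defactinib, 1.01 ± 0.38 (adjusted p = 0.0371), was at both thresholds: the groups did not overlap, but leaving out any 1 of the 6 libraries gave an adjusted p of 0.0685 to 0.0946. The direction of the defactinib difference depended on the third library as well, at -0.12 ± 0.38 (adjusted p = 0.881) with it and 0.92 ± 0.09 (adjusted p = 2.51e-05) without. After LPS alone, WT exceeded IRF5 KO 5.51-fold (log2 2.46 ± 0.40, adjusted p = 0.00016), a difference of 3.50 ± 0.10 (adjusted p = 3.76e-13) without IRF5 KO LPS DMSO replicate 3 and of 1.42 when replicates 1 and 2 were left out instead. Under defactinib the order was turned, with WT below IRF5 KO by 2.25 ± 0.40 on the log2 scale (adjusted p = 0.000444). The responses themselves differed between genotypes, by 3.05 ± 0.55 for LPS (adjusted p = 0.00219) and by -4.71 ± 0.56 for defactinib (adjusted p = 1.73e-05), and Irf1 passed both tests in every alternative tried.

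Irf2 encodes a factor that binds the same elements as IRF1 and often represses from them. It held 77.8, 83.4 and 70.4 CPM in unstimulated WT libraries and 85.6, 90.1 and 76.7 CPM after LPS, so that the groups overlapped and did not differ by the test (log2 0.12 ± 0.19, edgeR adjusted p = 0.65). Under LPS and defactinib it was 37.5, 30.7 and 51.2 CPM, and all 3 libraries were below those with DMSO. This 2.11-fold fall (log2 -1.08 ± 0.20, adjusted p = 0.000274) is close to the threshold of the fold, and without WT LPS defactinib replicate 2 it was -0.92 and no longer called.

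IRF5 KO libraries held 75.4, 66.7 and 78.4 CPM of Irf2 before LPS, a level that overlapped with WT. After LPS they held 32.1, 33.3 and 56.2 CPM, and with LPS and defactinib 33.2, 34.0 and 33.4 CPM. Irf2 was thus lower after LPS in these cells with DMSO (log2 -0.86 ± 0.20, edgeR adjusted p = 0.00526, below the called fold) and fell 2.19-fold with defactinib (log2 -1.13 ± 0.20, adjusted p = 0.000343). With the 2 libraries left out, the former was -1.17 ± 0.10 (adjusted p = 1.01e-08). WT exceeded IRF5 KO 2.08-fold after LPS (log2 1.05 ± 0.20, adjusted p = 0.000424), a call that was lost when WT LPS DMSO replicate 2 (log2 0.98) or replicate 1 or 2 of IRF5 KO LPS DMSO (log2 0.90 and 0.91) was left out. The genotype difference in the LPS response was 0.98 ± 0.27 (adjusted p = 0.0233), and in the defactinib response -0.81 ± 0.27 (adjusted p = 0.0307), both below the called fold.

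Irf8 is a lineage factor of monocytes and dendritic cells that pairs with PU.1. Its levels in unstimulated WT libraries were 58.9, 61.7 and 66.2 CPM, and after LPS 587, 661 and 518 CPM. This was a 9.45-fold rise (log2 3.24 ± 0.69, edgeR adjusted p = 0.00143) that was called in all 30 alternatives. With LPS and defactinib the libraries held 39.8, 41.1 and 260.3 CPM, all below LPS DMSO, and the third lay between the unstimulated and the LPS levels. The fall with defactinib was 5.17-fold (log2 -2.37 ± 0.67, adjusted p = 0.00714, or 0.0613 in a fit of the groups compared alone), and with the 2 libraries left out it was -3.86 ± 0.11 (adjusted p = 7.11e-16). Without those libraries the defactinib-treated WT cells lay below unstimulated ones (log2 -0.63 ± 0.09, adjusted p = 9.61e-06), which the test on all libraries did not find (0.87 ± 0.64, adjusted p = 0.266).

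IRF5 KO cells began at a higher level of Irf8 than WT. The unstimulated libraries held 164, 194 and 178 CPM, each above every unstimulated WT library, but the 2.87-fold difference did not pass on all libraries (log2 WT minus IRF5 KO -1.52 ± 0.65, edgeR adjusted p = 0.143). It had the same size and an adjusted p of 8.69e-11 with the 2 libraries left out, neither of which is in the groups compared: all groups share 1 estimate of the spread per gene, and for Irf8 these libraries set much of it. After LPS the IRF5 KO libraries held 79.7, 79.8 and 379 CPM, of which 2 lay below and 1 above every unstimulated library. The mean therefore did not move (log2 0.01 ± 0.63, adjusted p = 0.994), whereas without the third library the difference was -1.16 ± 0.64 (adjusted p = 0.14). With WT LPS defactinib replicate 3 left out as well, which acts only through the shared spread, its adjusted p was 2.94e-09. The addition of defactinib to LPS gave 113, 115 and 112 CPM of Irf8 in these cells. The LPS responses of the genotypes differed by 3.23 ± 0.92 (adjusted p = 0.0261) and by 4.40 ± 0.13 (adjusted p = 5.53e-15) without the 2 libraries. The former call was lost without any 1 of the WT unstimulated libraries (adjusted p = 0.0555 to 0.0619), WT LPS DMSO replicate 2 (0.0546), IRF5 KO unstimulated replicate 2 or 3 (0.052 and 0.0508) or replicate 1 or 2 of IRF5 KO LPS DMSO (0.07 and 0.0707). After LPS, WT exceeded IRF5 KO by 1.71 ± 0.65 (adjusted p = 0.0383), a call lost without any 1 of the WT LPS DMSO libraries (adjusted p of 0.0581 to 0.0853) or when replicate 1 or 2 of IRF5 KO LPS DMSO was left out (0.145 and 0.147).

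Irf4, the other partner of PU.1 and a factor of alternatively activated macrophages and of dendritic cells grown with GM-CSF, was high before LPS. It stood at 505, 507 and 523 CPM in unstimulated WT libraries and at 480.2, 410.5 and 456 CPM after LPS. This small difference did not pass (log2 -0.19 ± 0.42, edgeR adjusted p = 0.755). Treated with LPS and defactinib, the libraries held 27.0, 15.2 and 30.6 CPM, all 3 far below both other WT groups. The fall was 18.5-fold against LPS DMSO (log2 -4.21 ± 0.48, adjusted p = 4.79e-06) and 21.1-fold against unstimulated cells (log2 -4.40 ± 0.48, adjusted p = 7.47e-06). Irf4 was thus called lower in WT cells with LPS and defactinib and not with LPS alone.

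In IRF5 KO cells Irf4 was 311, 353 and 307 CPM before LPS, below the WT libraries, although the difference did not pass (log2 0.66 ± 0.42, edgeR adjusted p = 0.362). After LPS it was 92.2, 93.2 and 402 CPM and with LPS and defactinib 162, 155 and 159 CPM. This last group lay below the unstimulated one without overlap, by a log2 difference of -1.03 ± 0.42 just outside the threshold (adjusted p = 0.0506), which was called in 12 of 30 alternatives. The third LPS library lay above the unstimulated ones and its mates below them, so the LPS difference was -0.73 ± 0.42 (adjusted p = 0.177) with it and -1.81 ± 0.15 (adjusted p = 2.36e-08) without the 2 libraries. Defactinib moved Irf4 by -0.30 ± 0.42 in these cells, with an interval of -1.12 to 0.51, and by 0.77 ± 0.18 (adjusted p = 0.0187) without the third LPS DMSO library. The genotype difference in the defactinib effect was -3.91 ± 0.61 (adjusted p = 0.000183). Under defactinib WT was 6.53-fold below IRF5 KO (log2 -2.71 ± 0.45, adjusted p = 0.000234). After LPS with DMSO it was 2.29-fold above (log2 1.20 ± 0.42, adjusted p = 0.0273), and that call was lost without WT LPS DMSO replicate 1 or 3 (adjusted p = 0.0642 and 0.0568) or IRF5 KO LPS DMSO replicate 1 or 2 (adjusted p = 0.11 and 0.111).

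**Figure D2:**
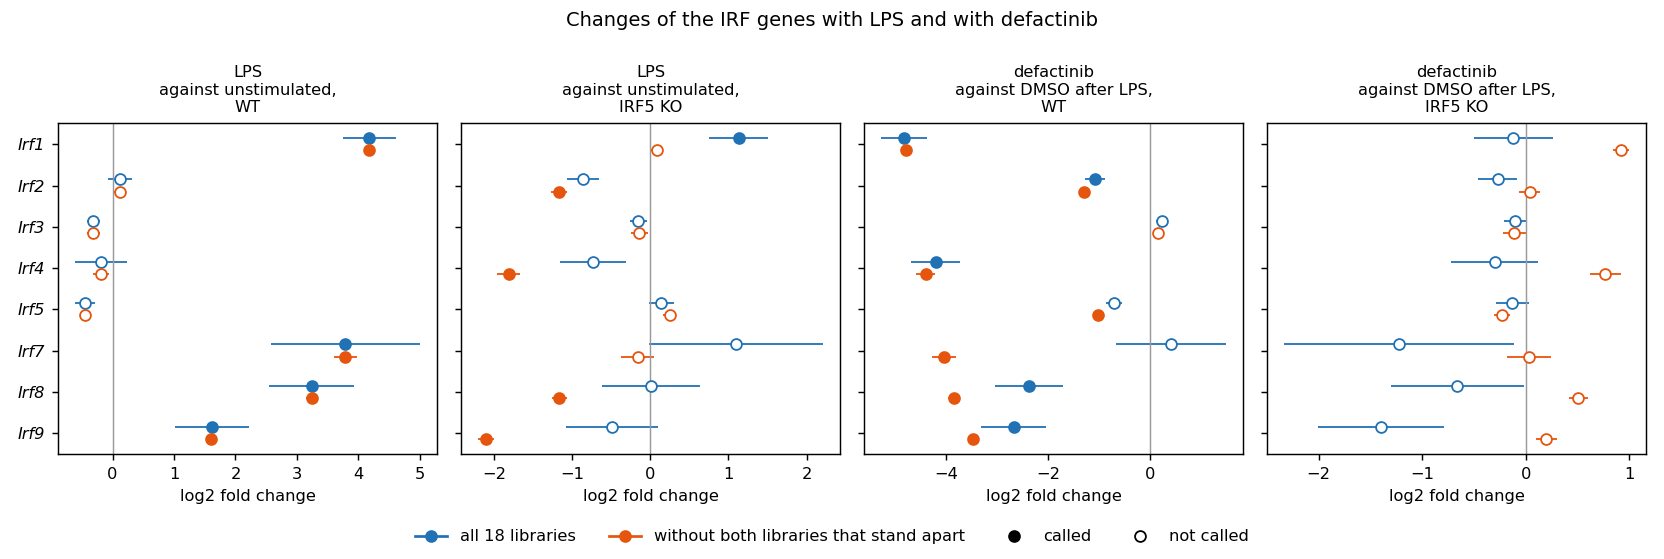
Log2 fold changes of the 8 IRF genes with LPS and with defactinib in each genotype, as edgeR estimates with bars of 1 SE, from all 18 libraries (blue) and without the 2 libraries that stood apart (orange), filled where called; the panels have their own scales. In WT, Irf1 lies at 4.18 with LPS and -4.83 with defactinib, whereas Irf4 lies at -0.19 and -4.21, and for Irf7 with defactinib the blue and orange points are on opposite sides of 0.

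Irf9 encodes the DNA-binding subunit of ISGF3. Unstimulated WT libraries held 54.6, 55.1 and 56.7 CPM, LPS DMSO libraries 165, 185 and 160.1 CPM and LPS defactinib libraries 16.8, 13.6 and 49.2 CPM. The groups were apart in each comparison. The rise with LPS was 3.07-fold (log2 1.62 ± 0.60, edgeR adjusted p = 0.0425) and close to the threshold. Leaving out any 1 of the WT unstimulated libraries gave an adjusted p of 0.0974 to 0.105, any 1 of the WT LPS DMSO libraries 0.069 to 0.0913, and any 1 of the IRF5 KO unstimulated or LPS defactinib libraries, which enter through the shared spread, 0.0538 to 0.0562, and with the 2 libraries that stood apart left out it was 1.46e-12 at a log2 change of 1.61. The fall with defactinib was 6.41-fold (log2 -2.68 ± 0.63, adjusted p = 0.00217). Below the unstimulated level, the difference was -1.06 ± 0.60 (adjusted p = 0.146) on all libraries and -1.87 ± 0.09 (adjusted p = 3.62e-12) without those 2.

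IRF5 KO libraries held 47.7, 48.8 and 45.8 CPM of Irf9 before LPS, then 11, 11.2 and 78.6 CPM after LPS and 12.5, 12.3 and 13.4 CPM with LPS and defactinib. The groups with and without defactinib overlapped, and 5 of the 6 LPS-treated IRF5 KO libraries lay below the unstimulated level. The fall was 3.72-fold with defactinib present (log2 -1.90 ± 0.61, edgeR adjusted p = 0.0176, and 0.052 and 0.0526 when the first or second library of that group was left out). With DMSO it was -0.49 ± 0.59 (adjusted p = 0.527), or -2.10 ± 0.10 (adjusted p = 1.44e-12) without the 2 libraries. WT exceeded IRF5 KO 5.05-fold after LPS (log2 2.34 ± 0.62, adjusted p = 0.00582), and before LPS the difference was 0.23 ± 0.59 (adjusted p = 0.885). The test of the genotype difference in the LPS response did not pass on all libraries (2.11 ± 0.84, adjusted p = 0.097), and 3.71 (adjusted p = 0.000104) when replicate 3 of IRF5 KO LPS DMSO was left out.

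Irf7 is itself an interferon-stimulated gene, and its product amplifies the interferon response. In WT it rose from 14.5, 14.7 and 20 CPM to 240.3, 268 and 174 CPM with LPS. This was a 13.8-fold rise without overlap (log2 3.79 ± 1.21, edgeR adjusted p = 0.0194), and leaving out any 1 of the WT unstimulated libraries gave an adjusted p of 0.0532 to 0.0679. With LPS and defactinib the libraries held 16.7, 10.7 and 885 CPM. The first 2 of these were at the unstimulated level and the third was above every other library of the series.

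All Irf7 results with this group depended on that library. On all libraries defactinib gave a log2 difference in Irf7 of 0.42 ± 1.08 (edgeR adjusted p = 0.756), and without WT LPS defactinib replicate 3 it was -4.04 (adjusted p = 0.000143). The call of Irf7 as higher with LPS and defactinib than in unstimulated WT cells (4.21 ± 1.23, adjusted p = 0.0103) became a difference of -0.25 without it. The call of WT above IRF5 KO under defactinib (4.99 ± 1.28, adjusted p = 0.00685) became 0.51 ± 0.21 (adjusted p = 0.0515) with the 2 libraries left out. In IRF5 KO cells Irf7 was 11.3, 9.08 and 10.9 CPM before LPS, 9.77, 8.99 and 48.3 CPM after it and 9.79, 10.3 and 8.63 CPM with defactinib. Apart from the third LPS library, all IRF5 KO libraries were below the lowest unstimulated WT library. After LPS, WT exceeded IRF5 KO 10.1-fold (log2 3.34 ± 1.18, adjusted p = 0.0277), a call lost without WT LPS DMSO replicate 2 (adjusted p = 0.0554) or IRF5 KO LPS DMSO replicate 1 or 2 (adjusted p = 0.101 and 0.103).

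Irf3, the factor that is present before stimulation and activated by phosphorylation, had the narrowest range of the members. It lay between 17.9 and 28.0 CPM in all 18 libraries and was called in none of the comparisons. WT libraries held 23.2, 25.9 and 23.7 CPM before LPS, 19.3, 21.6 and 17.9 CPM after it and 19.8, 24.4 and 24.8 CPM with LPS and defactinib. It was lower after LPS by a small amount (log2 -0.31 ± 0.11, edgeR adjusted p = 0.0379) and lower in WT than in IRF5 KO after LPS (-0.33 ± 0.11, adjusted p = 0.0241). The IRF5 KO libraries, at 26.4, 28.0 and 27.7 CPM before LPS, 26.3, 23.3 and 24.1 CPM after it and 22.2, 25.8 and 20.9 CPM with defactinib, did not differ by the test with LPS (-0.15 ± 0.11, adjusted p = 0.282). The interval of that difference ran from -0.37 to 0.06. These RNA levels do not bear on the phosphorylation of IRF3.

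**Figure D3:**
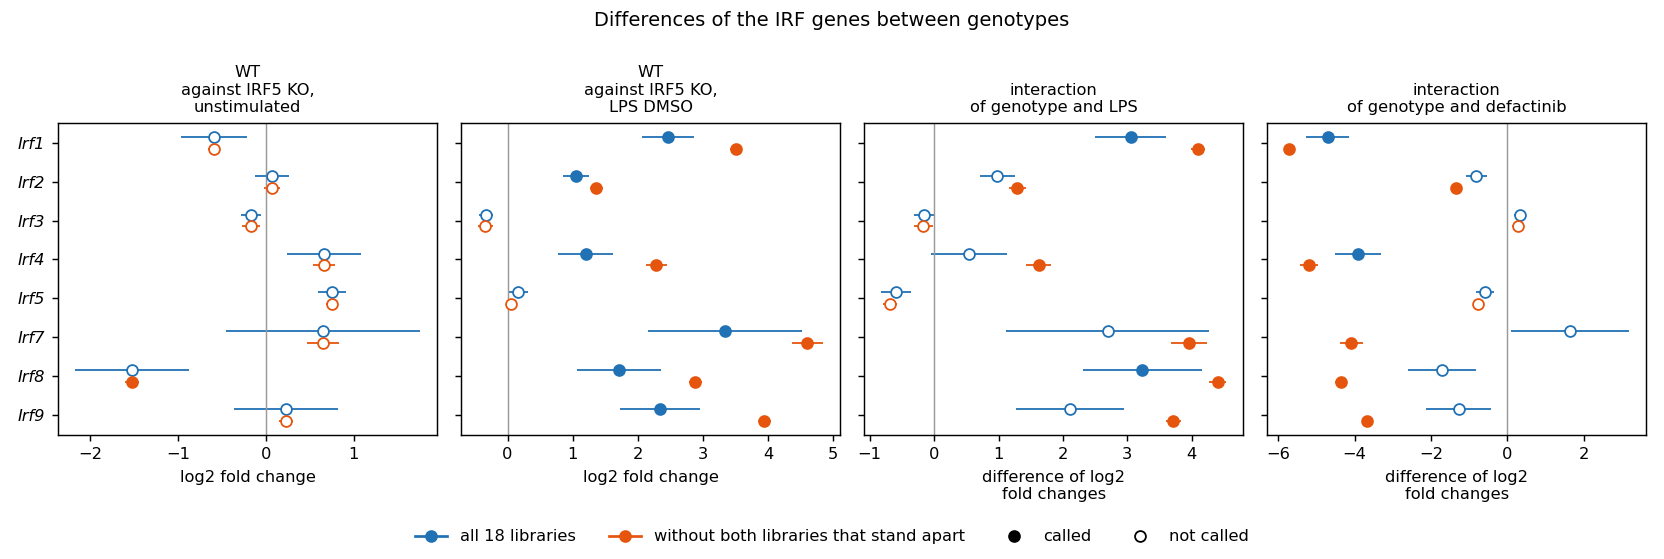
Log2 differences of WT against IRF5 KO for the 8 IRF genes in unstimulated cells and after LPS with DMSO, and the genotype differences in the effects of LPS and of defactinib, as edgeR estimates with bars of 1 SE, from all 18 libraries (blue) and without the 2 libraries that stood apart (orange), filled where called. Irf1 lies at 2.46 after LPS, at 3.05 for the LPS effect and at -4.71 for the defactinib effect.

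To compare members with each other, CPM was divided by the exon length of the gene in kilobases. In unstimulated WT cells Irf5, at 211 ± 11.2 CPM per kb (SD, n = 3), and Irf4, at 109 ± 2.05, were the leading members. The other members lay between 4.35 (Irf7) and 10.4 (Irf2) CPM per kb, and the libraries of Irf2 and Irf9, and those of Irf1 and Irf3, overlapped. After LPS the order was Irf5 at 155 ± 7.28, Irf1 at 145 ± 10.1, Irf4 at 95.2 ± 7.51, Irf8 at 83.4 ± 10.1, Irf7 at 60.2 ± 12.8, Irf9 at 31.6 ± 2.44, Irf2 at 11.4 ± 0.917 and Irf3 at 5.69 ± 0.554 CPM per kb. Neighbours overlapped in the pairs Irf5 with Irf1 and Irf4 with Irf8. Irf1, which overlapped with Irf3 before LPS, thus overlapped with Irf5 after it.

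In WT cells with LPS and defactinib, Irf5 led at 94.9 ± 31.0 CPM per kb. Irf7 came next at 80.6 ± 133, a mean set by a single library, and Irf3, Irf2, Irf4, Irf1 and Irf9 all lay between 4.93 and 6.68 CPM per kb. All neighbours in that order overlapped. In unstimulated IRF5 KO cells the order was Irf5 (126 CPM per kb), Irf4 (68.7), Irf8 (25.3), Irf1 (12), Irf2 (9.94), Irf9 (8.80), Irf3 (7.95) and Irf7 (2.77), where Irf2 and Irf9 alone overlapped. After LPS these cells had Irf5 at 139 and Irf4, Irf1 and Irf8 at 41.5, 26.4 and 25.4 CPM per kb, which overlapped. The means of Irf4, Irf1 and Irf8 were raised by replicate 3, at 85.2, 53.5 and 53.7 CPM per kb, against 11.3 to 19.8 in its mates. Irf3, Irf9, Irf7 and Irf2 followed between 5.48 and 7.14 CPM per kb, also overlapping. Under LPS and defactinib the IRF5 KO order was Irf5 (127), Irf4 (33.6), Irf1 (24.3), Irf8 (16.1), Irf3 (6.67), Irf2 (4.54), Irf7 (2.54) and Irf9 (2.36), of which Irf7 and Irf9 alone overlapped. Irf5 was the leading member in each of the 6 groups by the mean level per length.

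**Figure D4:**
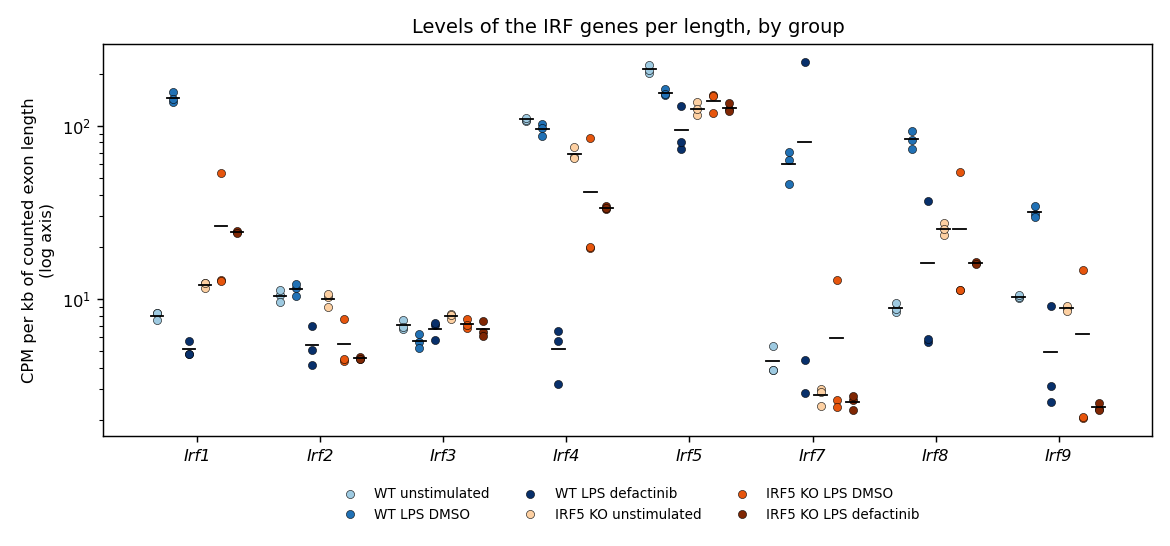
Level per length of each IRF gene, in CPM per kilobase of counted exon (log axis), with 1 point per library, colours for the 6 groups and a line at each group mean. In unstimulated WT cells Irf5 and Irf4, at means of 211 and 109 CPM per kb, stand above the other members, and after LPS Irf1 reaches a mean of 145 CPM per kb.

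The genes around the family were followed in lists, also drawn up with earlier results known, and are described by their counts and medians. Of all tested genes, 21.3% were called with LPS and 29.1% with defactinib in WT cells. Among 16 sensors and adaptors upstream of IRFs, 4 rose and 1 fell with LPS in WT cells (median log2 change 0.15, against -0.00 over all tested genes), or 5 and 2 without the 2 libraries that stood apart. Cd14, the LPS co-receptor, rose from 60.4 to 64.1 CPM to 326 to 467 CPM (log2 2.64 ± 0.25, edgeR adjusted p = 8.3e-07). Tlr3 and Tlr7, receptors for double- and single-stranded RNA, rose by 2.53 ± 0.60 (adjusted p = 0.00308) and 1.83 ± 0.39 (adjusted p = 0.00135), and Mavs, the adaptor of the RIG-I-like receptors, fell by 1.57 (adjusted p = 4.29e-05). With defactinib in WT cells 8 of the 16 fell and none was called higher (median -1.08, against 0.09, or 9 with a median of -1.41 without the 2 libraries that stood apart), among them Tlr3, which fell by 3.26 (log2), and Tlr7, which fell by 2.32. Among the same genes in IRF5 KO cells, 2 rose and 4 fell with LPS (median -0.49), or 1 rose and 8 fell without the 2 libraries that stood apart, against 13.3% and 26.8% of all genes called.

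Of 9 kinases that act on IRFs or their adaptors, Ikbke and Ripk2 were called with LPS in WT cells, 2 of 9 against 21.3% of all tested genes. Ikbke, which encodes IKKε, rose by 1.87 ± 0.34 (edgeR adjusted p = 0.000405) and Ripk2, the kinase of NOD signalling, by 1.80 ± 0.20 (adjusted p = 3.19e-06). Defactinib lowered 3 of the 9 in WT, among them Ripk2, which fell by 2.17 (log2), and Ikbke, which fell by 1.27. Ptk2b, which encodes the inhibitor's target PYK2, held 161 to 178 CPM in unstimulated WT libraries, 162 to 172 CPM after LPS and 101 to 122 CPM with defactinib. It was lower with defactinib by a log2 difference of -0.62 ± 0.09 (adjusted p = 2.44e-05), below the called fold.

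In the interferon-beta loop, 4 of 9 genes rose with LPS in WT cells (median 1.15, or 5 with a median of 1.14 without the 2 libraries) and 5 fell with defactinib (median -1.56, or 6 with a median of -1.20 without the 2 libraries). Ifnb1 had at most 1 count in each unstimulated library. After LPS it reached 81.9, 54.5 and 69.1 CPM in WT and 32.8, 32.2 and 18.6 CPM in IRF5 KO cells, with WT 1.30 ± 0.42 higher on the log2 scale (edgeR adjusted p = 0.0175). Under LPS and defactinib it was 37.7, 21.8 and 6.42 CPM in WT, lower than with DMSO by 1.64 ± 0.42 (adjusted p = 0.00415), and 17.6, 15.6 and 18 CPM in IRF5 KO. Ifnb1 was therefore well above the unstimulated level in every LPS-treated library, including the IRF5 KO libraries in which Irf7 and Irf9 were not raised. Stat2, which encodes a partner of IRF9, rose with LPS in WT by 1.95 ± 0.46 (adjusted p = 0.0028) and fell with defactinib by 2.01 on the log2 scale (adjusted p = 0.00174).

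Among 13 partners and cofactors, 1 rose and 2 fell with LPS in WT cells (median -0.33), a share close to the 21.3% of all tested genes. With defactinib 3 rose and 5 fell (median -0.49), or 3 and 6 without the 2 libraries. Irf2bp2, a corepressor that binds IRF2, made the largest change. It went from 67.8, 67.6 and 75.5 CPM to 4.94, 3.48 and 4.32 CPM with LPS in WT (log2 -4.05 ± 0.19, edgeR adjusted p = 5.49e-10), and stood at 9.93, 10.6 and 9.58 CPM with defactinib (log2 1.24 ± 0.18 against DMSO, adjusted p = 3.04e-05). The IRF5 KO libraries went from 94.6, 80.6 and 106 CPM to 38.9, 36.6 and 58.7 CPM (log2 -1.07 ± 0.17, adjusted p = 0.000683). Spib, a partner of IRF4 and IRF8, was low in WT, at 0.458 to 0.64 CPM after LPS, and held 10.2 to 20.5 CPM in IRF5 KO after LPS (log2 WT minus IRF5 KO -4.96 ± 0.38, adjusted p = 1.63e-07). Spi1, which encodes PU.1, held 201 to 490.3 CPM and differed by -0.78 ± 0.18 with LPS in WT (adjusted p = 0.00237), below the called fold.

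All 24 target genes of IRF3 and ISGF3 rose with LPS in WT cells (median 4.98) and 18 fell with defactinib (median -3.70, or 23 with a median of -4.58 without the 2 libraries that stood apart). Ifit1, an inhibitor of viral translation, went from 14.3 to 17.4 CPM to 2814, 2905 and 2682 CPM and with defactinib held 5.79, 3.49 and 30.8 CPM. Isg15, a ubiquitin-like modifier, went from 24.2 to 34.5 CPM to 1663 to 1768 CPM and with defactinib held 103, 67.5 and 235 CPM. In IRF5 KO cells 12 rose with LPS (median 2.18), and with the 2 libraries left out 5 rose and 6 fell (median 0.14), against 13.3% and 26.8% of all genes called. Ifit1 in those libraries was 11.1, 10.8 and 574 CPM. WT exceeded IRF5 KO in 23 of the 24 after LPS (median 3.19, and 23 also without the 2 libraries, median 4.55), against 25.8% and 35% of all genes called. With defactinib in IRF5 KO, 1 of the 24 was called lower, and none was called in either direction without them, against 0.919% and 2.26% of all genes.

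Of 13 genes linked to IRF1, 10 rose with LPS in WT cells (median 2.22), 9 fell with defactinib (median -2.10, or 10 with a median of -2.71 without the 2 libraries) and 10 were higher in WT than in IRF5 KO after LPS (median 2.14, against 14% of all genes called higher). Gbp5, a GTPase of host defence, went from 22.8 to 27.3 CPM to 988 to 1300.3 CPM with LPS and to 31.5 to 173 CPM with defactinib. Ciita, the transactivator of MHC class II, was not called with LPS (0.33 ± 0.38, edgeR adjusted p = 0.535) and fell by 2.63 with defactinib (adjusted p = 8.41e-05). In all, 4 of the 13 rose with LPS in IRF5 KO cells, and none did without the 2 libraries, against 7.07% of all genes called higher on all libraries.

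The 9 cytokine genes linked to IRF5 all rose with LPS in WT (median 5.45) and all rose in IRF5 KO (median 4.79, and 3.63 without the 2 libraries, against 7.07% of all genes called higher on all libraries). Il12b went to 2137, 2759 and 2228 CPM in WT and to 610.2, 616 and 577 CPM in IRF5 KO, where the third library lay with its mates. It did not for other cytokines: the IRF5 KO LPS DMSO libraries held 28.3, 27.9 and 382 CPM of Il6, 563, 568 and 1825 CPM of Il1b and 2491, 2495 and 1141 CPM of Tnf. Defactinib lowered all 9 in WT (median -3.12, or -4.61 without the 2 libraries), Il12b to 15.8 to 65.0 CPM. In IRF5 KO it lowered none: edgeR called 0 in either direction (median 0.70, 3 at an unadjusted p below 0.05), and without the 2 libraries 5 were called higher (median 1.03), against 2.26% of all genes called in either direction. The genotype difference in the defactinib effect was called for 8 of the 9 (median -3.88), and for all 9 without the 2 libraries (median -6.01), against 22.8% and 34.2% of all genes. Of 5 genes linked to IRF4 in alternatively activated macrophages, edgeR called none with LPS or with defactinib in WT cells. The shares of all genes called there were 21.3% and 29.1%, and 2 and 1 of the 5 had an unadjusted p below 0.05. With defactinib Irf4 itself fell 18.5-fold. For LPS with defactinib against unstimulated WT, 2 of the 5 were called higher and 0 lower (median 0.95), against 24.9% of all genes called. Between the genotypes in unstimulated cells 3 were called higher and 2 lower in WT, against 7.31% of all genes called.

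**Figure D5:**
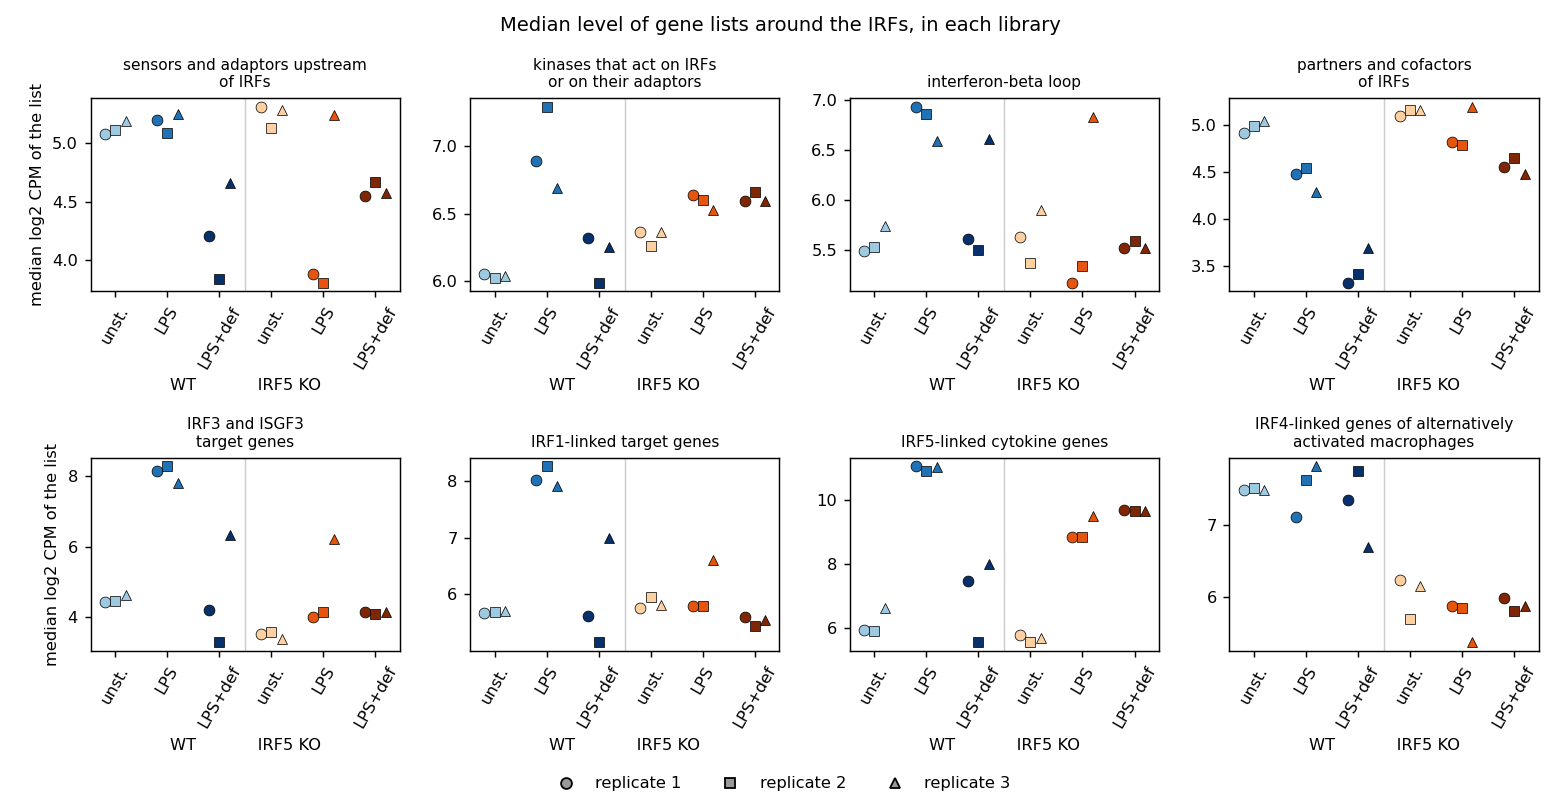
Median log2 CPM of each list of genes around the IRF family, with 1 symbol per library, by group (abbreviated as in the plot of member levels); each panel has its own scale, which does not start at 0. The IRF3 and ISGF3 targets go from 4.44 to 4.64 in unstimulated WT libraries to 7.80 to 8.28 with LPS, and in IRF5 KO LPS DMSO the third library, at 6.23, lies above its mates at 3.99 and 4.14.

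The genes with the pattern most like each member were found by Pearson r of log2 CPM over the 18 libraries among 8459 genes, as a description, in which the libraries of a group are not independent points. For Irf1 the nearest gene was Rasa2 (r = 0.986), for Irf2 Sbno2 (0.980), for Irf4 Sprtn (0.986), for Irf7 Oas3 (0.985), for Irf8 Cd83 (0.975) and for Irf9 Adar (0.993). Irf3 and Irf5 had looser neighbours, Neurl4 at 0.908 and Bag3 at 0.826. Among the members, the highest r was between Irf2 and Irf9, at 0.91, Irf1 and Irf8 stood at 0.82, and the lowest was between Irf1 and Irf3, at -0.55.

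The genes nearest to Irf7 shared its high value in WT LPS defactinib replicate 3, which their choice by r over libraries that include this one largely fixes. Oas3 held 38.0, 22.5 and 333 CPM in that group, Zbp1 41.9, 29.4 and 199 CPM, and Sp100 104, 69.4 and 270.0 CPM, and the third value was in each case above every WT LPS DMSO library, as for Irf7. For Ifit1 and Isg15 the same library also lay above its mates, but far below LPS DMSO. These genes do not stand for all listed IRF3 and ISGF3 targets, of which Oas3 and Zbp1 are also members.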

How the data were processed

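The deposited table holds raw counts of read pairs per gene for all 18 libraries. Per the methods and the file headers, the authors aligned paired reads to mm10 with STAR and counted uniquely mapped pairs with featureCounts 1.6.3, reverse stranded, over exons. Of 50600 gene IDs, 50376 were paired with a symbol from GENCODE M21.

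Counts were tested with edgeR 4.0.16 (R 4.3.3; quasi-likelihood F test, two-sided, TMM, filterByExpr, robust, 1 mean per group over all 18 libraries, no block), with Benjamini-Hochberg adjustment over 15663 genes. The SE is the log2 fold change divided by the square root of F. Intervals of differences are normal approximations from this SE and can be narrower than the test allows. For Irf3 with defactinib in LPS-treated WT cells such an interval ran from 0.01 to 0.45, although the unadjusted edgeR p was 0.0589. Called genes had an adjusted p below 0.05 and more than 2 times the level in either direction. The scripts were tested on simulated data. CPM used TMM-scaled library sizes. Counting intervals are not given, since library spread exceeded them. The chi-square per gene between libraries of a group, larger where they differ more, ran from 2.33 to 441. It was lowest between replicates 1 and 2 of IRF5 KO LPS DMSO, then 3.82 between replicates 1 and 2 of WT unstimulated. Fits without the 2 libraries that stood apart rest on the former pair for its group. Whether such close replicates are independent was not tested.

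The members and gene lists were chosen with earlier results of these data known. By rule, the text names all members, up to 4 genes of each list with the highest level and 4 with the largest called LPS change in WT, and the 3 nearest genes to each member by Pearson r (mean log2 CPM of at least 3, prior count 2). The examples given are among these.

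Same-numbered libraries were checked for pairing: over 45 pairs, deviations from group means correlated at -0.105 to 0.278 (median 0.00455), with 4 above 0.1. Such correlations cannot show whether libraries share a mouse or a preparation day, so pairing was neither assumed nor excluded.

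Alternatives were DESeq2 1.42.0 and its size factors, limma-voom (limma 3.58.1), library size alone, no filter, 5 CPM in 3 libraries, a replicate block, only the groups compared, no fold threshold, glmTreat, and leaving out libraries.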

Additional observations from a re-analysis of the deposited data

Results flagged for a closer look

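For 4 members the effect of LPS or of defactinib differed between the genotypes by the test of the difference itself, the interaction term of edgeR's fit, at a false discovery rate below 0.05. In each of these tests 3 of 8 members passed, against 17.1% of all tested genes for the LPS response and 37% for the defactinib effect. All values are log2 differences, WT minus IRF5 KO. The LPS response differed by 3.05 for Irf1, by 0.98 for Irf2 and by 3.23 for Irf8, so that each of these genes was more raised or less lowered by LPS in WT. The defactinib effect differed by -4.71 for Irf1, by -0.81 for Irf2 and by -3.91 for Irf4, so that each was more lowered in WT. The values of Irf2 are below a 2-fold difference. Both tests share the LPS DMSO libraries, so they are not independent of each other.

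IRF5 KO LPS DMSO replicate 3 moved with these values, and its part was not tested beyond leaving it out. With both libraries that stood apart left out, the LPS differences were 4.09, 1.29 and 4.40 for Irf1, Irf2 and Irf8, and the defactinib differences were -5.71, -1.34 and -5.19 for Irf1, Irf2 and Irf4, in the same directions. With IRF5 KO LPS DMSO replicates 1 and 2 left out instead, 1 library stood for that group. The LPS differences were then 2.01, 0.49 and 2.13, and the defactinib differences -3.66, -0.31 and -2.84, all smaller in size. The spread of a group of 1 library is not measured, so no test result is given for that fit.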

How the results depend on the processing

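Over 30 alternatives, 2 of them chosen after the data were seen, and 88 combinations of member and comparison, 2444 of 2629 values kept their side of the threshold, 104 lost a call, 72 gained one and 9 changed sign with a call before or after. Among the 2444, 57 changed sign without a call in either fit, of which 6 had an adjusted p below 0.05 in the alternative. These were Irf1 (to 0.92) and Irf4 (to 0.77) for defactinib in IRF5 KO, each without IRF5 KO LPS DMSO replicate 3 and without both libraries that stood apart, and, without both, Irf8 for the same comparison (to 0.51) and for LPS with defactinib against unstimulated WT (to -0.63). With IRF5 KO LPS DMSO replicate 3 and WT LPS defactinib replicate 3 left out, the members called became 4 for LPS in IRF5 KO, 1 for unstimulated WT against IRF5 KO, and 6 for each genotype difference in response, against 26.8%, 9.28%, 24.7% and 34.2% of all genes. Irf8 reversed to -1.16 for LPS in IRF5 KO and -1.49 for WT against IRF5 KO under defactinib. Irf7 reversed to -4.05 for defactinib in WT, -0.26 for LPS with defactinib against unstimulated WT and -4.09 for the genotype difference in defactinib effect. With IRF5 KO LPS DMSO replicates 1 and 2 left out instead, 1 library stood for its group. The spread of that group is then not measured, and the number of calls is not given.

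Leaving out each library in turn gave 2 to 4 members called for LPS in WT, 0 to 3 for LPS in IRF5 KO, 4 to 6 for defactinib in WT, 0 for defactinib in IRF5 KO, 2 to 4 and 1 to 4 for LPS with defactinib against unstimulated WT and IRF5 KO, 0 to 1, 2 to 6 and 3 to 4 for WT against IRF5 KO in the 3 conditions, and 1 to 5 and 2 to 5 for the genotype differences in LPS and defactinib effect. In the same order, the share of all genes called was 19.1 to 23.1%, 6.46 to 26.2%, 26.3 to 30.7%, 0.125 to 5.55%, 22.1 to 26.3%, 21.7 to 25.3%, 5.52 to 8.58%, 21.3 to 34.5%, 14.9 to 20.3%, 6.65 to 23.6% and 20.2 to 31.6%. Irf7 ranged from -4.04 to 1.01 for defactinib in WT, from -0.25 to 4.80 for LPS with defactinib against unstimulated WT and from -2.80 to 2.25 for the genotype difference in defactinib effect, and Irf8 from -1.47 to 0.44 for WT against IRF5 KO under defactinib. Each lowest value was without WT LPS defactinib replicate 3.

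A threshold inside the test (glmTreat) called 2 members for LPS in WT, 0 for LPS in IRF5 KO, 3 for defactinib in WT, 0 for LPS with defactinib against unstimulated IRF5 KO, 1 for WT against IRF5 KO after LPS and 1 for the genotype difference in LPS response, where it called 10.1%, 2.09%, 15.4%, 10%, 11.2% and 0.69% of all genes. No filter gave 2, 0 and 1 for LPS in WT, LPS in IRF5 KO and LPS with defactinib in IRF5 KO, 3 for WT against IRF5 KO after LPS and 1 for the genotype difference in LPS response (12.6%, 6.86%, 14.4%, 15.1% and 4.26% of all genes). A fit of the groups compared gave 0 for LPS in IRF5 KO, 1 for unstimulated WT against IRF5 KO and 3 after LPS (1.08%, 9.77% and 19.5% of all genes). Without a fold threshold LPS in IRF5 KO gave 2 and unstimulated WT against IRF5 KO 1, where 37.5% and 15.3% of all genes passed. Library size alone gave 3 for WT against IRF5 KO after LPS (27.2% of all genes) and moved the median of all genes in that comparison by -0.26. limma-voom gave 4 for the genotype difference in LPS response (12.1% of all genes). The replicate block gave 0 for LPS in IRF5 KO, 4 for LPS with defactinib against unstimulated IRF5 KO, 4 and 3 for the genotype differences in LPS and defactinib effect (14.3%, 23.9%, 10.6% and 23.1% of all genes), and called the same members as without it elsewhere. The cause of these shifts was not tested. DESeq2 gave no adjusted p for Irf9, which stays out of its counts.

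The counts were deep enough for every member (325 counts or more), so the spread between libraries, not depth, limits these results.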
